A study of Mus musculus with 2 samples.

Results

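The collagen genes described here are all genes of the deposited matrices whose symbol is Col, a number, the letter a and a number, which took in 44 of 27998 genes. They were followed through the cell classes of the embryonic mouse pancreas in 2 droplet single-cell libraries of C57BL/6 embryos at embryonic day 13.5. The control library came from 1 embryo, and the other library came from 1 embryo titled knockout in a series on Dpy30, a subunit of complexes that methylate histone H3, where the design text names the genotype Dpy30∆P. The sources used here do not name the driver of the deletion, the control's own alleles or the deleted exons. Each condition is 1 library, so no difference between the libraries has a replicate check, and none was tested.

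Collagens are secreted triple-helical proteins that form the fibrils and sheets of the extracellular matrix. Fibrillar chains (collagens I, II, III, V, XI, XXIV and XXVII) build fibrils, FACIT chains such as collagen IX sit on fibril surfaces, collagen IV forms the sheet of basement membranes, and the multiplexins XV and XVIII lie in or beside that sheet. In developing organs the mesenchyme makes most of the fibrils, and epithelium, endothelium and mesothelium each rest on a basement membrane. Collagens II, IX and XI are best known from cartilage.

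The windows below run from 250 bases before to 50 bases after an annotated start (RefSeq, GRCm38.p6), and were available for 35 members in 38 windows. They are shown because the results turn on 2 sets of chains, a pair with a like ratio in mesenchyme and endothelium (Col4a1 and Col4a2) and a pair whose ratio parted between mesenchyme and trunk (Col9a1 and Col9a2). Capitals mark matches, on either strand, to a TATA box (searched as TATAAA), to a CCAAT box (searched as those letters) or to a GC box (searched as GGGCGG), and these matches do not overlap here. Col4a1 (ENSMUSG00000031502; chr8:11198423-11312826, minus strand) and Col4a2 (ENSMUSG00000031503; chr8:11312805-11449287, plus strand) lie head to head, their annotated starts overlapping by 22 bases, and their windows share 78 bases. Col9a1 (ENSMUSG00000026147; chr1:24177610-24252684, plus strand) has 2 annotated windows, and Col9a2 (ENSMUSG00000028626; chr4:121039385-121055322, plus strand) has 1.
Col4a1, chr8:11312777-11313076, minus strand: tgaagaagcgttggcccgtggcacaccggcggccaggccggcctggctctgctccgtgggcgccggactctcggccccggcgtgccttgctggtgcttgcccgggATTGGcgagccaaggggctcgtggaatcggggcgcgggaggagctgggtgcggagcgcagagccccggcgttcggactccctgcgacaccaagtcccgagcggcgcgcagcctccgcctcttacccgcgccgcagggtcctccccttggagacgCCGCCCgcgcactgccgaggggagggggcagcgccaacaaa
Col4a2, chr8:11312555-11312854, plus strand: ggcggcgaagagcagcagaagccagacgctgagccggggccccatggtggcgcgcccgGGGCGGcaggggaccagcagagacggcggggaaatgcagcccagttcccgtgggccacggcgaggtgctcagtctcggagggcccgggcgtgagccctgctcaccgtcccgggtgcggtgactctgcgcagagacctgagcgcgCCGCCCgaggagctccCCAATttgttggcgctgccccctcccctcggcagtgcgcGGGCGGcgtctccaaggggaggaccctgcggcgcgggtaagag
Col9a1, first start, chr1:24177360-24177659, plus strand: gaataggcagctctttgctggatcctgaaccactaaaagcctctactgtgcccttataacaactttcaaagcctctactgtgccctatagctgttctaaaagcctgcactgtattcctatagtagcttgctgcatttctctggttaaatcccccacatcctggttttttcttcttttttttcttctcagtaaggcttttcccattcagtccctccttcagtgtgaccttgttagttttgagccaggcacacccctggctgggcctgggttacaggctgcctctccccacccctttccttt
Col9a1, second start, chr1:24194953-24195252, plus strand: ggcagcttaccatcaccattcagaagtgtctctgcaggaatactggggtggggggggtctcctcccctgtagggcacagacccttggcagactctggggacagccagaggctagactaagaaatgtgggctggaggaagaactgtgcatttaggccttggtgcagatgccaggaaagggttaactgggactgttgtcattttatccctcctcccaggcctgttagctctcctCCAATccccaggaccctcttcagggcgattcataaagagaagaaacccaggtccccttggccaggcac
Col9a2, chr4:121039316-121039615, plus strand: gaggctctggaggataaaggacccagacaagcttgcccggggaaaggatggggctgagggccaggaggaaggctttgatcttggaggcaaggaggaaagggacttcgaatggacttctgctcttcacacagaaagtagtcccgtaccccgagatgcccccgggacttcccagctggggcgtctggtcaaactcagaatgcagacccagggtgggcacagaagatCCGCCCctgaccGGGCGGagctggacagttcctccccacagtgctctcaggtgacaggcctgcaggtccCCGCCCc
The TATA box letters were found in 13.6% of all 32851 mouse windows of this length and in 5 of the 35 members with a window. The CCAAT letters were found in 37.4% of windows and 13 members, and the GC box letters in 35.7% of windows and 22 members. None of the 5 windows shown holds the TATA box letters, and the GC box letters occur 3 times each in the windows of Col4a2 and Col9a2. A match is a description of letters, and the counting of tags near transcript ends does not tell which start a transcript used. Windows were not found for Col1a1, Col2a1, Col4a3, Col5a2, Col9a3, Col12a1, Col14a1, Col22a1 and Col26a1.

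After filters the control library held 3749 cells and 30550715 unique molecular identifiers (UMIs, 1 per captured transcript molecule), and the knockout-labelled library held 2938 cells and 26603694 UMIs, with 22 barcodes shared by both libraries. Cells were assigned by raw UMIs of marker genes that are not collagens. The gates took 926 control and 585 knockout-labelled mesenchymal cells, 186 and 166 mesothelial, 674 and 447 epithelial and 26 and 32 endothelial cells, and 48.7% and 56.0% of cells passed no gate. Markers fixed for mesenchyme summed to 1628 and 1515 CPM (UMIs scaled to a class total of 1000000) in gated mesenchyme and to 1276 and 1200 CPM in cells of no gate, so many cells with those markers lay outside the gate. Epithelial markers summed to 2803 and 2537 CPM in epithelium and to 29.4 and 25.7 CPM in mesenchyme. Because the deleted part is not named, the Dpy30 level of 225 and 264 CPM in epithelium could not check the label. Xist was at 0 and 1403 CPM and Ddx3y at 43.6 and 0 CPM there, so the embryos were of opposite sex, which cannot be told apart from the label. Below, values joined by "and" give the control library first, levels are CPM with 1 tag per molecule and no scaling by transcript length, and intervals are 95% and cover counting error alone, although many UMIs came from the same cell.

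By gated class, collagen transcripts were most abundant in mesenchyme, next in mesothelium and endothelium. Among the non-immune classes they were least abundant in tip epithelium. Summed over the 44 members they made up 2802 CPM (interval 2762 to 2842) and 2388 CPM (2345 to 2431) of mesenchyme, 1799 (1737 to 1862) and 1886 (1822 to 1952) of mesothelium, and 1392 (1258 to 1536) and 1170 (1060 to 1289) of endothelium. The order of these classes was the same in both libraries. Cells of no gate held 2951 (2919 to 2983) and 2289 (2262 to 2316) CPM, above gated mesenchyme in the control library only. Trunk epithelium held 619 (591 to 647) and 503 (475 to 533) CPM, endocrine progenitors 713 (660 to 769) and 526 (469 to 588), hormone-lineage cells 240.3 (202 to 283) and 137 (87.7 to 204) and tip cells 166 (155 to 179) and 129.6 (118 to 142). Trunk and endocrine progenitors therefore stood above the tip and hormone-lineage classes. Epithelial cells outside these classes held 740 (665 to 821) and 587 (507 to 676) CPM. As a measure of free RNA, immune cells held 63.0 and 37.8 CPM and barcodes filled with haemoglobin transcripts held 110.1 and 95.5 CPM, so the tip sum lay less than a factor of 2 above the latter.

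**Figure D1:**
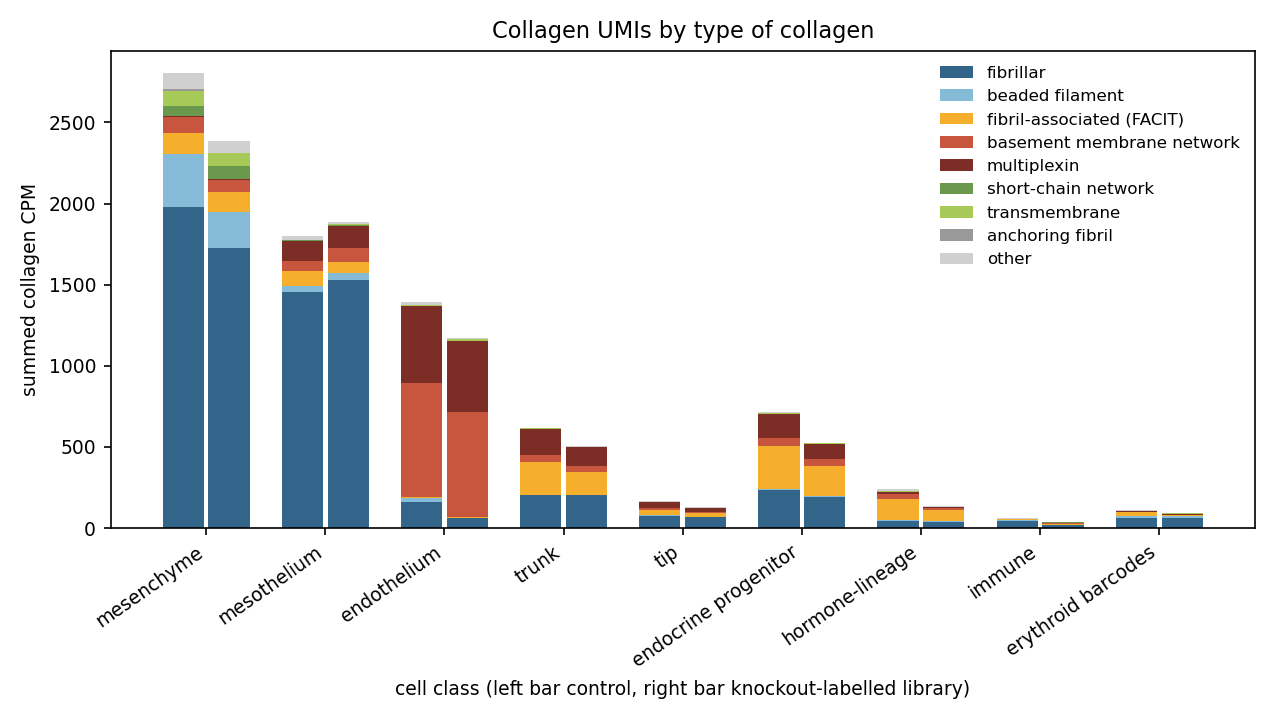
Summed collagen CPM (vertical axis) in 9 cell classes (horizontal axis), left bar the control library and right bar the knockout-labelled library, with colours for the type of collagen. Fibrillar chains fill most of the mesenchymal and mesothelial bars, collagen IV and the multiplexins most of the endothelial bars, and fibril-associated chains a large part of the trunk and endocrine progenitor bars.

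The types of collagen made up different shares of the classes. Fibrillar chains were 70.7% and 72.4% of collagen UMIs in mesenchyme and 80.7% and 81.1% in mesothelium, but 32.8% and 40.0% in trunk epithelium and 11.6% and 5.07% in endothelium. In endothelium the collagen IV family made up 50.1% and 55.6%, and the multiplexins 34.4% and 37.0%. FACIT chains made up 32.1% and 28.6% in trunk and 37.6% and 35.2% in endocrine progenitors, against 4.69% and 5.28% in mesenchyme. In single cells thinned to 3000 UMIs, the median mesenchymal cell held 8 and 7 collagen UMIs, and the median trunk cell held 2 in both. Collagen UMIs were absent from 0.108% and 0.343% of thinned mesenchymal cells, 20.7% and 23.8% of trunk cells and 61.5% and 73.5% of tip cells.

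Classes were compared with edgeR's quasi-likelihood test on UMIs summed per class and library, with the library as a term, over 11000 genes between the main classes and 10129 within the epithelium. The 2 libraries serve as the replicates, so these tests set a difference between classes against its disagreement between these embryos. That disagreement was estimated per gene with help from all genes, so a small p-value also reflects the spread of other genes. Counts high enough to test were reached by 27 of the 44 members between the main classes and by 14 within the epithelium. Against mesenchyme, 6 members were called higher and 14 lower in mesothelium (14.3% and 11.9% of all genes), and 5 higher and 21 lower in epithelium (26.1% and 26.6% of all genes). In endothelium 4 were called higher and 19 lower (11.9% and 11.2% of all genes). Each of these calls had the same direction in each library taken alone, but the calls came from these same libraries, so this is no independent check. Members abundant in mesenchyme passed the count filter through that class, and members high in another class could pass through that one. Col15a1, for example, held 7 and 3 UMIs in mesenchyme and 44 and 58 in endothelium. The numbers of lower and of higher calls are therefore no evidence on collagens as a group.

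**Figure D2:**
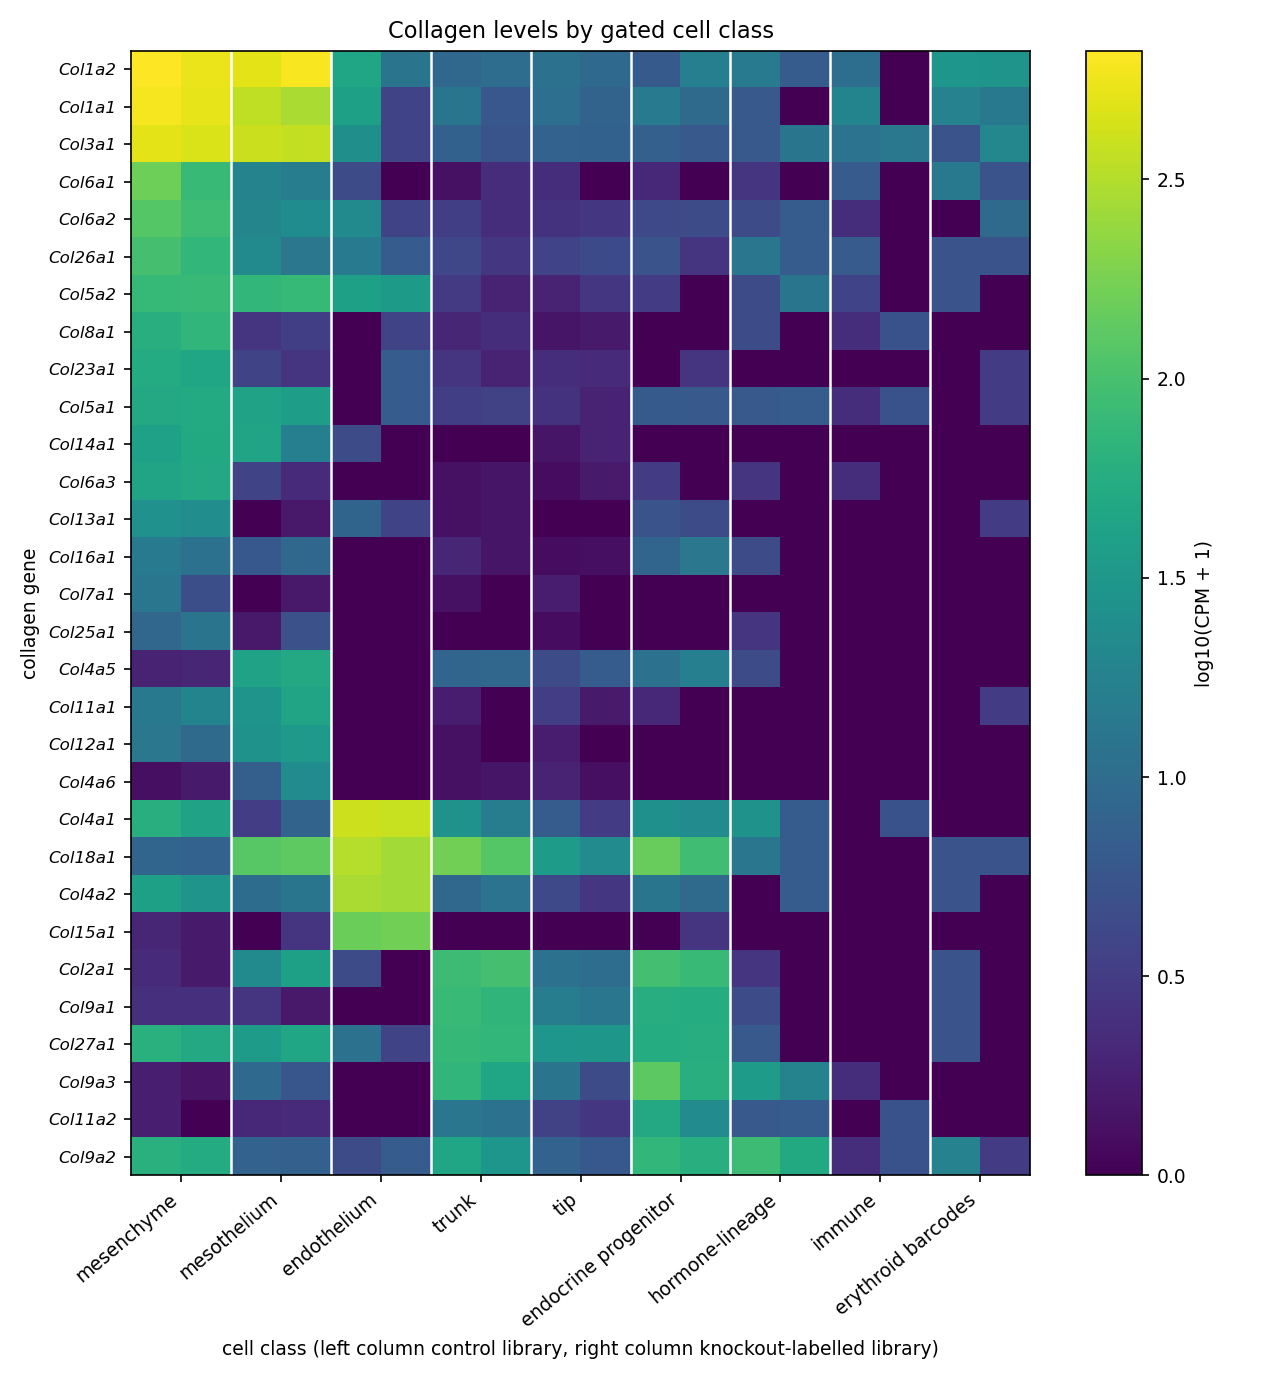
Level of the 30 members that reached 10 CPM in a gated class other than immune cells (rows) in 9 classes (columns, control library left and knockout-labelled library right), as log10 of CPM + 1 in colour. The upper block is brightest in mesenchyme and mesothelium, Col4a1, Col4a2, Col18a1 and Col15a1 in endothelium, and, of the classes shown, Col2a1, Col9a1, Col9a3 and Col11a2 in trunk and endocrine progenitors.

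The fibrillar chains of collagens I and III were the most abundant members wherever fibrils dominate. In mesenchyme Col1a2, the alpha 2 chain of collagen I, stood at 664 and 544 CPM, its partner Col1a1 at 609.6 and 523 CPM, and Col3a1, the chain of collagen III, at 503 and 457 CPM. Each of them was lower in the knockout-labelled library by less than the call limit of 1.5-fold, with ratios of 0.819 (interval 0.780 to 0.859), 0.859 (0.817 to 0.902) and 0.910 (0.863 to 0.960). In mesothelium Col1a2 stood at 502 and 629 CPM, Col3a1 at 391 and 362 CPM and Col1a1 at 360.2 and 293 CPM. Only Col1a2 had the higher value in the knockout-labelled mesothelium among these 3 chains.

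The balance of the 2 collagen I chains, which assemble into 1 trimer, differed between those layers. Col1a1 UMIs per Col1a2 UMI were 0.918 (interval 0.880 to 0.958) and 0.963 (0.912 to 1.02) in mesenchyme, and 0.717 (0.647 to 0.794) and 0.465 (0.418 to 0.517) in mesothelium. Against mesenchyme, Col1a1 was called lower in mesothelium (log2 fold change -0.85 ± 0.13 SE, edgeR adjusted p = 3.89e-06), whereas Col1a2 was not called (-0.14 ± 0.13, adjusted p = 0.469). The Col1a1 call did not hold with DESeq2. The difference between the 2 chains was not itself tested.

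In epithelium the same 3 chains were at the level of free RNA. Col1a2 stood at 9.61 and 10.6 CPM, Col1a1 at 10.3 and 6.69 CPM and Col3a1 at 6.86 and 6.84 CPM, while barcodes filled with haemoglobin transcripts held 29.6 and 27.6 CPM of Col1a2. With cells thinned to 3000 UMIs, a Col1a1 UMI was seen in 76.9% and 73.6% of mesenchymal cells and in 3.43% and 1.57% of epithelial cells, beside 5.00% and 0% of immune cells (0 of 21 cells; unthinned shares 94.3% and 95.6%, 13.6% and 8.72%, and 13.8% and 0%). Median depths before thinning were 6706.5 and 8077 UMIs in mesenchyme, 12674 and 14651 in epithelium and 8708 and 11303 in immune cells.

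Collagen V chains, which nucleate collagen I fibrils, were spread more evenly over the stromal layers. Col5a2 stood at 76.9 and 78.7 CPM in mesenchyme and at 72.3 and 77.5 CPM in mesothelium, and Col5a1 at 49.3 and 51.8 and at 41.1 and 36.4 CPM. Neither was called between those classes. Col11a1, a minor fibrillar chain, stood at 12.8 and 17.9 CPM in mesenchyme and 27.8 and 43.4 CPM in mesothelium, and was called higher there (log2 fold change 1.16 ± 0.27 SE, edgeR adjusted p = 0.00112). That call did not hold with DESeq2 or with background UMIs subtracted.

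Col27a1, a fibrillar chain with broad expression, had the smallest fold change between mesenchyme and epithelium. It stood at 61.5 and 49.8 CPM in mesenchyme and 47.5 and 49.8 CPM in epithelium, and was the 1 tested member not called between them (log2 fold change -0.25 ± 0.15 SE, edgeR adjusted p = 0.148). Within the epithelium it was lower in tip than in trunk (29.6 and 30.5 against 75.3 and 72.4 CPM; log2 fold change -1.07 ± 0.15, edgeR adjusted p = 8.01e-08). In hormone-lineage cells it stood at 5.08 and 0 CPM.

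Collagen VI, the beaded filament of soft connective tissue, was highest in mesenchyme, where its chain Col6a1 stood apart between the libraries. Col6a1 stood at 156 CPM in control mesenchyme and 81.1 CPM in knockout-labelled mesenchyme, a ratio of 0.521 (interval 0.463 to 0.584) on 1060 and 407 UMIs. Its partner Col6a2 stood at 119.5 and 88.1 CPM (ratio 0.737, 0.655 to 0.829), and Col6a3, the long chain of the trimer, at 43.4 and 49.4 CPM (1.14, 0.959 to 1.35). The 3 chains thus did not stand in the same ratio, and Col6a1 UMIs per Col6a2 UMI were 1.30 (1.19 to 1.43) and 0.921 (0.803 to 1.06).

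The Col6a1 value lay below the control in each subset of mesenchyme, of which the first 3 can share cells. In cells with Lum it stood at 200.2 and 112 CPM, in cells with Isl1 at 152 and 87.1 CPM, in mitotic cells at 151 and 81.5 CPM and in the remaining mesenchyme at 152 and 73.4 CPM. No interval of the knockout-labelled library reached the interval of the control library in these 4 subsets. Cells that passed no gate gave 153 and 70.7 CPM (ratio 0.461, interval 0.424 to 0.501), whereas mesothelium gave 17.2 and 14.5 CPM (0.839, 0.475 to 1.47). With cells thinned to 3000 UMIs, Col6a1 was seen in 36.5% (33.4 to 39.7) and 19.0% (15.9 to 22.5) of mesenchymal cells, and in 60.3% and 49.2% before thinning. The log2 ratio of CPM + 5 was -0.90, and lay between -1.07 and -0.80 over the settings tried. Erythroid transcripts, mostly haemoglobin, summed to 179 and 370.2 CPM in the same cells, and with the content of erythroid barcodes subtracted the log2 ratio was -0.85.

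**Figure D3:**
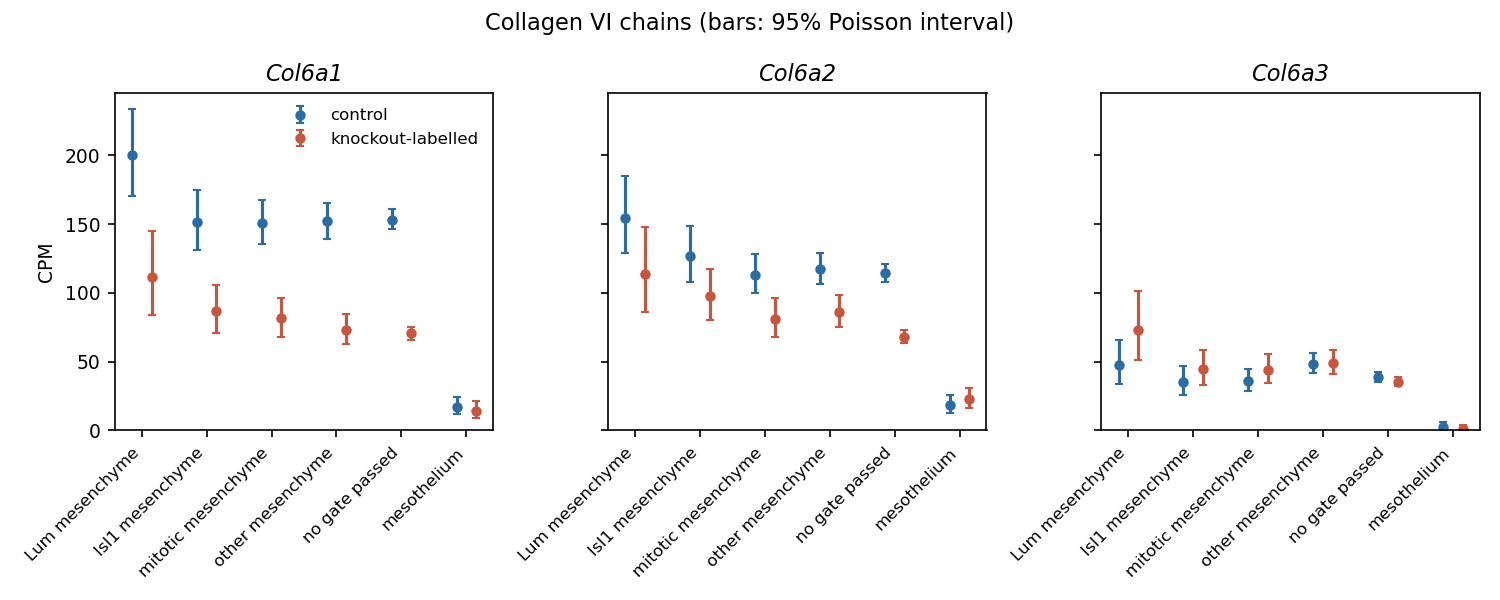
CPM (vertical axis) of the collagen VI chains Col6a1, Col6a2 and Col6a3 in 4 mesenchymal subsets, cells of no gate and mesothelium (horizontal axis), 1 point per library with 95% Poisson intervals for counting error. Col6a1 is lower in the knockout-labelled library in each of the first 5 groups, for example 152 and 73.4 CPM in the remaining mesenchyme, and Col6a3 overlaps between the libraries in these groups.

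Between classes, the collagen VI chains were lower outside mesenchyme. In epithelium the log2 fold changes against mesenchyme were -7.04 ± 0.25 SE for Col6a1, -5.72 ± 0.22 for Col6a2 and -6.47 ± 0.31 for Col6a3 (edgeR adjusted p = 2.42e-21, 3.09e-20 and 2.56e-17). In mesothelium they were -2.94 ± 0.21, -2.39 ± 0.21 and -4.56 ± 0.37 (edgeR adjusted p = 1.07e-12, 5.36e-11 and 2.63e-11). Col6a4, Col6a5 and Col6a6 had 15 or fewer UMIs in mesenchyme of each library.

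Collagen IV, the network of basement membranes, was concentrated in endothelium through its chains Col4a1 and Col4a2. Col4a1 stood at 409 and 384 CPM in endothelium, 57.6 and 41.7 CPM in mesenchyme, 2.22 and 6.94 CPM in mesothelium and 26.8 and 14.6 CPM in trunk epithelium. Col4a2 stood at 289 and 266 CPM in endothelium, 39.6 and 27.7 CPM in mesenchyme, 8.89 and 11.6 CPM in mesothelium and 7.93 and 11.03 CPM in trunk. Both were called higher in endothelium than in mesenchyme, by a log2 fold change of 3.04 ± 0.20 SE for Col4a1 and 3.07 ± 0.21 for Col4a2 (edgeR adjusted p = 1.53e-13 and 3.64e-13). The pair that lies head to head in the genome, whose start windows are printed above, kept a similar ratio in the 2 classes of its highest CPM. Col4a1 UMIs per Col4a2 UMI were 1.46 and 1.504 in mesenchyme and 1.41 and 1.45 in endothelium, but 3.38 (interval 2.12 to 5.57) and 1.32 (0.761 to 2.32) in trunk. In mesothelium the ratio was 0.25 (0.0608 to 0.775) and 0.60 (0.267 to 1.29), the second interval including 1.

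The X-linked pair Col4a5 and Col4a6, whose starts lie 1308 bases apart on opposite strands, had its highest level in mesothelium. Col4a5 stood at 41.7 and 49.2 CPM in mesothelium and 0.882 and 0.997 CPM in mesenchyme, and was called higher in mesothelium (log2 fold change 5.48 ± 0.35 SE, edgeR adjusted p = 1.42e-13) and in epithelium (2.66 ± 0.41, adjusted p = 2.54e-06), where it stood at 5.70 and 7.14 CPM. Col4a6 stood at 6.11 and 21.99 CPM in mesothelium, on 11 and 38 UMIs, a ratio of 3.60 (interval 1.80 to 7.80), with 11 and 30 UMIs in cells of no gate, 5 and 3 in epithelium and 2 and 3 in mesenchyme, too few for the edgeR test between classes. Xist was at 0 and 1715 CPM in the same cells, and the sex of the embryos cannot be told apart from the label for these genes. Col4a3 held 0 UMIs in mesenchyme, and Col4a4 held 8 and 5.

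The multiplexins were split between endothelium and the other layers that carry a basement membrane. Col18a1, whose end fragment is endostatin, stood at 324 and 269 CPM in endothelium, 164 and 117 CPM in trunk, 147 and 89.1 CPM in endocrine progenitors, 123 and 130.2 CPM in mesothelium and 7.35 and 6.78 CPM in mesenchyme. It was called higher than in mesenchyme in the 3 main classes compared, by log2 fold changes of 5.42 ± 0.24 SE in endothelium, 4.12 ± 0.20 in mesothelium and 3.40 ± 0.19 in epithelium (edgeR adjusted p = 9.21e-18, 8.37e-17 and 3.77e-16). Col15a1 stood at 155 and 164 CPM in endothelium and at 1.03 and 0.598 CPM in mesenchyme, and was called higher in endothelium (7.51 ± 0.45, edgeR adjusted p = 2.18e-14), where the mesenchymal level rests on 7 and 3 UMIs.

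The epithelium carried chains best known from cartilage, and they were concentrated in trunk cells and endocrine progenitors. Col2a1, the chain of collagen II, stood at 84.9 and 96.2 CPM in trunk, 94.0 and 78.8 CPM in endocrine progenitors, 10.6 and 9.19 CPM in tip, 1.69 and 0 CPM in hormone-lineage cells and 1.18 and 0.598 CPM in mesenchyme. Col9a1 followed with 81.9 and 69.3, 57.1 and 54.8, 14.7 and 11.9, 3.38 and 0, and 1.47 and 1.40 CPM in those classes. Immune cells held 0 UMIs of both in both libraries, and barcodes filled with haemoglobin held 1 and 0 UMIs of each, so the trunk levels stood far above free RNA. Against mesenchyme the epithelium was higher for Col2a1 (log2 fold change 5.56 ± 0.31 SE), Col9a1 (4.71 ± 0.27) and Col9a3 (5.84 ± 0.37), with edgeR adjusted p = 1.95e-15, 3.73e-15 and 1.92e-14. Col2a1 was also called higher in mesothelium (21.1 and 39.3 CPM; 4.88 ± 0.39, edgeR adjusted p = 2.84e-11), as was Col9a3 (8.34 and 4.63 CPM; 3.36 ± 0.65, adjusted p = 0.000154).

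Sox9, a transcription factor of both chondrocytes and pancreatic progenitors, stood at 473 and 466 CPM in trunk, 274 and 233 CPM in tip, 98.3 and 168 CPM in endocrine progenitors and 38.9 and 51.3 CPM in hormone-lineage cells. Acan, the cartilage proteoglycan aggrecan, stood at 36.0 and 26.03 CPM in trunk and 20.1 and 19.0 CPM in tip. It was at 7.40 and 13.7 CPM in endocrine progenitors and 3.38 and 0 CPM in hormone-lineage cells. The cartilage matrix gene Matn1 was at 0 UMIs in trunk and tip in both libraries. With cells thinned to 3000 UMIs, Col2a1 was seen in 21.1% (interval 16.1 to 26.9) and 27.4% (20.8 to 34.8) of trunk cells, beside 0.217% and 0% of mesenchymal cells (unthinned 59.8% and 58.9% beside 0.756% and 0.513%). The upper bound of the interval for the 0% is 0.631%. 

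**Figure D4:**
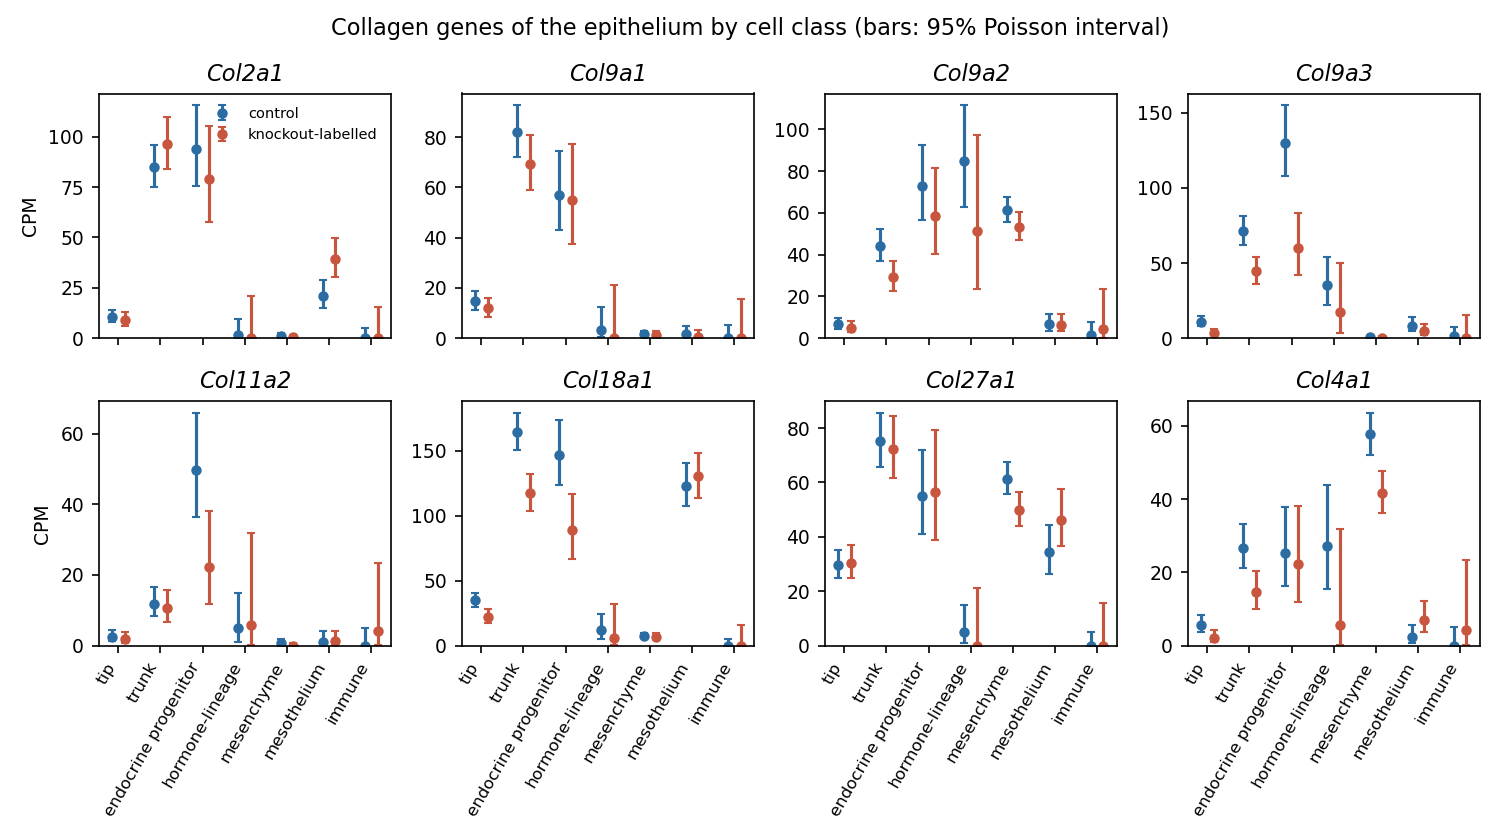
CPM (vertical axis) of 8 members in 4 epithelial classes, mesenchyme, mesothelium and immune cells (horizontal axis), 1 point per library with 95% Poisson intervals for counting error. Col2a1 and Col9a1 are high in trunk and endocrine progenitors and near 0 in hormone-lineage cells, whereas Col9a2 is at 84.6 and 51.3 CPM there and at 61.5 and 53.4 CPM in mesenchyme.

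The 3 chains of collagen IX, which assemble together in cartilage, parted between the layers. Col9a2 stood at 61.5 and 53.4 CPM in mesenchyme, where Col9a1 held 10 and 7 UMIs and Col9a3 held 5 and 2. Col9a1 UMIs per Col9a2 UMI were 0.0239 (interval 0.0114 to 0.0444) and 0.0261 (0.0104 to 0.0546) in mesenchyme, 1.85 (1.49 to 2.30) and 2.38 (1.77 to 3.22) in trunk and 0.783 (0.538 to 1.13) and 0.941 (0.562 to 1.57) in endocrine progenitors. Mesenchyme and trunk thus did not overlap in this ratio in either library. Col9a2 was called lower in epithelium than in mesenchyme (log2 fold change -1.12 ± 0.15 SE, edgeR adjusted p = 1.11e-07), the opposite of Col9a1 and Col9a3. In the annotation no other gene on the same strand overlaps the 3' end of a member.

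Between tip and trunk, 9 of 14 tested members were called lower in tip and 0 higher (6.47% and 9.72% of all genes). At an unadjusted edgeR p under 0.05 the count on the higher side was 0, as it was by DESeq2, and without doublet removal it was 3. Members abundant in trunk could pass the count filter through trunk alone, so the count of lower calls is no evidence on collagens as a group. The lower members were Col2a1 (log2 fold change -2.93 ± 0.18 SE), Col9a3 (-2.71 ± 0.21), Col9a2 (-2.39 ± 0.23), Col9a1 (-2.27 ± 0.17), Col4a1 (-2.14 ± 0.30), Col11a2 (-2.12 ± 0.39), Col18a1 (-2.07 ± 0.13), Col4a2 (-1.61 ± 0.43) and Col27a1 (-1.07 ± 0.15), with edgeR adjusted p of at most 0.00429. The collagen I and III chains, at the level of free RNA in both classes, were not called. The call of Col4a2 did not hold with DESeq2, and that of Col11a2 did not hold with thinned cells. With thinned cells Col4a2 had too few UMIs to be tested.

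Endocrine progenitors, the Neurog3 cells that leave the trunk, held several of the trunk's collagens, and a few were called higher than in trunk. Of 14 tested members 4 were called higher than in trunk and 0 lower (12.7% and 11.0% of all genes). DESeq2 called 0 lower, and 2 were lower at an unadjusted edgeR p under 0.05, Col9a1 and Col27a1. Col9a1 was called lower with median-of-ratios scaling and without doublet removal, and Col27a1 with thinned cells. Col11a2, a fibrillar chain, stood at 49.7 and 22.3 CPM against 11.9 and 10.6 CPM (log2 fold change 1.72 ± 0.31 SE, edgeR adjusted p = 1.17e-05). Col9a3 stood at 130.0 and 59.99 against 71.0 and 44.6 CPM (0.71 ± 0.18, edgeR adjusted p = 0.00222), Col9a2 at 72.9 and 58.3 against 44.3 and 29.1 CPM (0.81 ± 0.21, adjusted p = 0.00211) and Col16a1, a FACIT chain, at 7.40 and 12.0 against 0.991 and 0.441 CPM (3.48 ± 0.87, adjusted p = 0.00173). The Col16a1 levels rest on 7 and 7 UMIs in endocrine progenitors and 3 and 1 in trunk. Col9a2 and Col9a3 did not pass with DESeq2 or without the library term, Col9a2 did not pass with stricter gates, and Col9a2, Col9a3 and Col11a2 did not pass with thinned cells. Col16a1 passed the count filter through endocrine progenitors, where it is high, and had too few UMIs to be tested under the last 2 settings.

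In hormone-lineage cells, marked by Chga, several of the trunk's collagens were near 0. Against trunk, 6 of 14 tested members were called lower and 1 higher (20.6% and 20.2% of all genes). Here too a member could pass the count filter through trunk alone, so the number of lower calls is no evidence on collagens as a group. Col2a1 (log2 fold change -6.19 ± 0.59 SE), Col9a1 (-5.04 ± 0.52), Col27a1 (-4.38 ± 0.48) and Col18a1 (-4.05 ± 0.33) were lower with edgeR adjusted p of at most 1.81e-11, and Col9a3 (-1.27 ± 0.31, adjusted p = 0.000533) and Col4a2 (-2.91 ± 1.11, adjusted p = 0.0297) by less certain calls. Col9a2 was called higher, at 84.6 and 51.3 CPM (0.77 ± 0.25, edgeR adjusted p = 0.010). With stricter gates Col9a2, Col9a3 and Col4a2 no longer passed. Col9a2 and Col4a2 also did not hold with DESeq2 or with background UMIs subtracted. Col9a2 did not hold with thinned cells, where Col4a2 had too few UMIs to be tested. Nor did Col9a2 hold without the count filter, Col4a2 without doublet removal and Col9a3 without the library term. Without doublet removal 5 members were called higher and 5 lower. The class held 69 and 22 cells, and its Gcg level, a glucagon marker, was 6286 and 2007 CPM.

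Several other members were most abundant in mesenchyme. Col26a1 stood at 97.2 and 73.2 CPM in mesenchyme, Col8a1, a short-chain network collagen, at 57.2 and 71.6 CPM, the transmembrane chain Col23a1 at 53.4 and 44.5 CPM and the transmembrane chain Col13a1 at 25.6 and 22.9 CPM. Each of these 4 was called lower in mesothelium, epithelium and endothelium (edgeR adjusted p of at most 0.0113). With thinned cells Col13a1 was not among the called members in any of them, which includes the case of too few UMIs to be tested. In endothelium it was also not among them with DESeq2, with stricter gates and with background UMIs subtracted. By contrast the FACIT chain Col12a1 stood at 12.2 and 8.37 CPM in mesenchyme and 26.7 and 31.8 CPM in mesothelium and was called higher there (log2 fold change 1.45 ± 0.28 SE, edgeR adjusted p = 0.000172), a call that did not hold with DESeq2.

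Some members were hardly seen. Col10a1, of growth plate cartilage, and Col28a1 had 0 UMIs in the cells of either library. In mesenchyme 0 UMIs allow a level of up to 0.441 and 0.598 CPM, and in hormone-lineage cells up to 5.08 and 17.1 CPM. Col4a3, Col6a4, Col6a5, Col19a1 and Col20a1 had 6 or fewer UMIs over all cells of each library. Col5a3, Col4a4, Col22a1, Col6a6, Col24a1 and the hemidesmosomal chain Col17a1 had between 7 and 56. Absence of these members was therefore known only to the depth of each class.

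Between the libraries, members were compared where they held at least 20 UMIs over both, and counted as apart where CPM + 5 differed by more than 1.5-fold. In mesenchyme 27 members were measured, of which 0 were past that limit on the higher side and 2 on the lower side (0.776% and 1.23% of all 11206 genes). The 2 were Col6a1 and Col7a1, the anchoring fibril chain, which stood at 11.9 and 3.79 CPM on 81 and 19 UMIs (ratio 0.318, interval 0.182 to 0.529). The log2 ratio of Col7a1 was -0.94, but -0.44 in cells of no gate, below the limit. The median log2 ratio was -0.16 over the 27 members and -0.02 over all genes, and the collagen sum stood in a ratio of 0.852. Of the genes that gate mesenchyme, Pdgfrb was itself at 299 and 172 CPM there and Pdgfra at 108 and 141 CPM. Their part in the mesenchymal values was not tested. Cells of no gate gave a ratio of 0.776 for the sum, with 2 of 34 measured members past the limit, Col6a1 and Col6a2 (2.22% of all genes), and erythroid transcripts at 4862 and 12422 CPM beside it, whose part was not tested.

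The mesenchymal subsets added a few members on fewer UMIs. In Lum cells 5 of 20 measured members were past the limit (16.5% of all genes), in Isl1 cells 5 of 22 (10.0%), in mitotic cells 4 of 23 (6.20%) and in the remaining mesenchyme 3 of 24 (4.28%). Col8a1 stood at 111 and 187 CPM in Lum cells (ratio 1.69, interval 1.24 to 2.28). Col4a2 stood at 53.1 and 26.5 CPM in mitotic cells (0.50, 0.344 to 0.714) and at 59.95 and 32.2 CPM in Isl1 cells (0.538, 0.352 to 0.807), where Col4a1 stood at 89.5 and 41.8 CPM (0.467, 0.326 to 0.661).

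**Figure D5:**
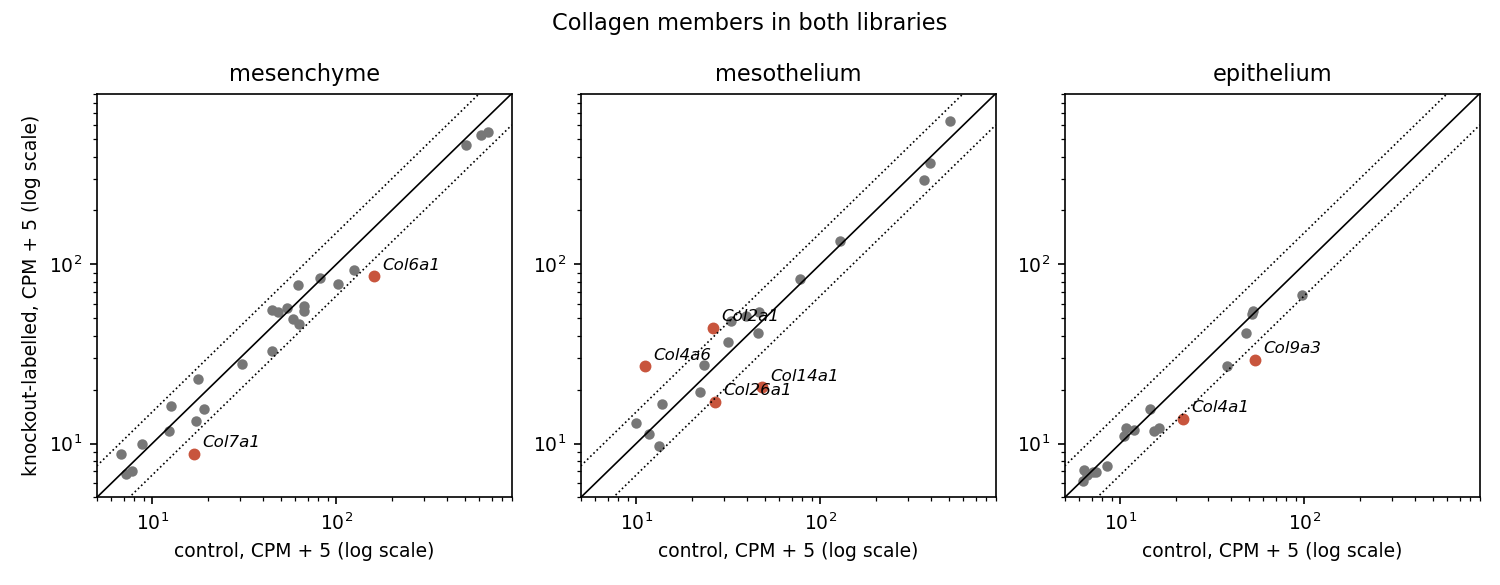
Level of each measured member in the control library (horizontal axis) and the knockout-labelled library (vertical axis), as CPM + 5 on log scales, in mesenchyme, mesothelium and epithelium, with equality (solid) and 1.5-fold (dotted) lines. Of 27, 20 and 19 members, 2, 4 and 2 lie outside the dotted lines and are named.

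In mesothelium 20 members were measured, and 2 were past the limit on each side (3.89% higher and 4.73% lower of all 9200 genes). Col4a6 and Col2a1 were the higher ones, Col2a1 at 21.1 and 39.3 CPM (ratio 1.86, interval 1.23 to 2.85). The lower ones were Col14a1, a FACIT chain, at 43.4 and 15.6 CPM (0.360, 0.224 to 0.565) and Col26a1 at 21.7 and 12.1 CPM (0.560, 0.313 to 0.976). Col2a1 was within the limit with thinned cells, and both Col2a1 and Col26a1 were within it with a pseudocount of 20. In mesenchyme Col14a1 leaned the other way, at 39.8 and 50.6 CPM (1.27, 1.07 to 1.51), although the direction turned in cells of no gate, with a log2 ratio of -0.23 beside 0.31, and 1.17 with stricter gates. The mesothelial median was 0.15 over the members and -0.02 over all genes. Mesothelial markers summed to 1358 and 1126 CPM in these cells, with Msln hardly seen at 3 and 0 UMIs, and erythroid transcripts to 190 and 374 CPM. Their part in the mesothelial values was not tested.

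In epithelium 19 members were measured, with 0 past the limit on the higher side and 2 on the lower side (0.847% and 1.59% of all 11921 genes). Col9a3 stood at 49.2 CPM in the control library and 24.4 CPM in the knockout-labelled library (ratio 0.496, interval 0.412 to 0.593), and Col4a1 at 16.9 and 8.77 CPM (0.519, 0.379 to 0.704), which was within the limit with thinned cells. Col9a3 was lower in each of the 4 epithelial classes, at 11.1 and 3.56 CPM in tip (0.321, 0.156 to 0.613), 71.0 and 44.6 CPM in trunk (0.627, 0.490 to 0.798), 130.0 and 59.99 CPM in endocrine progenitors (0.462, 0.308 to 0.677) and 35.5 and 17.1 CPM in hormone-lineage cells (0.481, 0.0919 to 1.61). The last interval includes 1. Its partners Col9a1 and Col9a2 stood at 43.1 and 36.3 CPM (0.842, 0.716 to 0.989) and 32.9 and 22.01 CPM (0.668, 0.546 to 0.815), and Col2a1 at 47.2 and 48.0 CPM (1.02, 0.879 to 1.18). Col18a1, the most abundant member there, stood at 92.5 and 62.3 CPM, a ratio of 0.674 (0.598 to 0.758) that was just within the limit.

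With epithelial classes combined at equal shares, the log2 ratio of Col9a3 was -0.85 beside -0.88. Spp1, the gene that gates the trunk, was itself at 2315 and 1414 CPM in epithelium, and erythroid transcripts summed to 171 and 355 CPM. Their part in the epithelial values was not tested. Counted in the classes, 2 of 13 measured members were past the limit in tip (4.67% of all genes), 3 of 13 in trunk (5.90%), 3 of 8 in endocrine progenitors (14.5%) and 2 of 2 in hormone-lineage cells (24.1%). Col9a3 and Col4a1 were those of tip, with Col1a1 joining them in trunk. In endocrine progenitors the 3 were Col9a3, Col11a2 (ratio 0.449, interval 0.223 to 0.843) and Col18a1 (0.607, 0.432 to 0.840), all lower. In endothelium 0 of 5 were past it (22.5% of all genes).

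Genes that make, bind and remove collagen were counted in the same way, beside 0.776% higher and 1.23% lower of all genes in mesenchyme. Of 26 measured genes of synthesis and assembly 0 were past 1.5-fold, including the collagen chaperone Serpinh1 at 1050 and 934 CPM, the collagen-binding Sparc at 1086 and 981 CPM and the prolyl isomerase Ppib at 490 and 483 CPM. None of 5 measured receptors was past it, and of 10 breakdown genes only Ctsk, cathepsin K, was, at 53.4 and 32.1 CPM. Of 11 basement membrane partners only Lama4, a laminin chain of vessels, was past it, at 17.2 and 8.97 CPM. In epithelium none of the 24, 2, 9 and 8 measured genes of these lists was past it, and Ppib stood at 752 and 834 CPM, Serpinh1 at 346 and 320 CPM and Sparc at 300 and 254 CPM. In mesothelium, where 3.89% of all genes were past it on the higher side, 3 genes were past it, all higher, P4ha3 at 6.11 and 19.7 CPM, Mrc2 at 3.89 and 9.84 CPM and Mmp14, a collagenase, at 43.4 and 70.0 CPM.

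The authors' deposited table of cluster markers, with 7 clusters and 4691 entries, held 25 entries of 7 members. In the authors' deposited table Col2a1 was listed for the cluster led by Spp1 with 59.1% of cells positive against 24.0% elsewhere (average log fold 0.40), and Col9a1 with 52.9% against 25.6%. The cluster led by Ube2c, Cenpf and Top2a also listed Col2a1 as higher in the authors' deposited table (70.3% against 29.4%). For that cluster the authors' deposited table listed Col18a1 (88.4% against 45.1%) and Col27a1 (71.7% against 35.4%) as higher too. In the authors' deposited table the cluster led by Neurog3 listed Col9a2 (47.5% against 27.2%) and Col11a2 (21.8% against 10.1%) as higher and Col27a1 as lower (10.1% against 44.2%). The cluster led by Gcg listed Col18a1 (8.0% against 52.9%) and Col2a1 (1.1% against 36.3%) as lower in the authors' deposited table. It was made from this series, so it is no independent support.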

How the data were processed

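The submitters' processing notes name Cell Ranger, Seurat 2 and 3 and the build GRCm38. The deposited matrices hold raw UMI counts per gene and barcode, per the file headers, with no normalization. The authors' deposited table of cluster markers gives average log fold changes, read here as natural log because its base is not stated, shares of cells with a gene, and p-values over cells, which were not used.

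Barcodes with at least 500 genes, 1000 UMIs and at most 10% mitochondrial UMIs were kept (29 and 32 removed). Simulated-doublet calls (0.8% per 1000 barcodes, 2000 variable genes, 30 principal components, 15 neighbours) removed 122 and 74 more. The 32 and 37 barcodes with over 50% haemoglobin UMIs served as a measure of free RNA. Those of them that passed the filters stayed among the cells, so cells of no gate could include them. Libraries held 32702089 and 28033433 UMIs in 3900 and 3044 barcodes. Cells were gated by summed raw UMIs: mesenchyme by Pdgfra and Pdgfrb (at least 2), epithelium by Epcam and Cdh1 (2), mesothelium by Upk3b, Upk1b, Msln and Lrrn4 (3), endothelium by Pecam1 and Cdh5 (2) and immune cells by Ptprc, Tyrobp and Csf1r (2). A further class entered the fit between the main classes and is not reported here. Epithelium was split by Chga (2, hormone-lineage), Neurog3 (5, endocrine progenitor), Cpa1 and Ptf1a (5, tip) and Spp1 (1, trunk).

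UMIs were summed per library and class. Classes were compared with edgeR 4.0.16 in R 4.3.3 (quasi-likelihood, TMM, library as a term, Benjamini-Hochberg threshold 0.05), with DESeq2 1.42.0 as an alternative. The p-values rest in part on the spread of classes between 2 embryos that also differ in label. The fits left 5 residual degrees of freedom between the main classes and 3 within the epithelium. The quasi-likelihood test also draws each gene's spread toward a value shared over all genes. The p-values therefore do not rest on these degrees of freedom alone. In simulated counts edgeR recovered 98% of 2-fold and 100% of 4-fold changes between mesothelium and mesenchyme (9988 genes), and 99% and 100% between tip and trunk (9630 genes). Each of these simulations gave 7 false calls. Libraries were compared as ratios, without a test, with Poisson intervals for levels, exact binomial intervals for shares and exact conditional intervals for ratios. Members and lists were chosen with earlier results of these data known. Values were given for the 6 members of highest level in each main class, those past 1.5-fold between libraries, and up to 6 called members per comparison and direction, 24 of 44 in all, with others as partner chains or examples of a type. Python 3.11.15, numpy 2.4.6, scipy 1.17.1, pandas 2.3.3, scikit-learn 1.9.0 and matplotlib 3.10.9 were used.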

Additional observations from a re-analysis of the deposited data

Results flagged for a closer look

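Col14a1, a fibril-associated chain, leaned in opposite directions in the mesothelium and the mesenchyme of the 2 libraries. Its log2 ratio of CPM + 5, knockout-labelled over control, was -1.23 in mesothelium on 78 and 27 UMIs and 0.31 in mesenchyme on 271 and 254 UMIs. The mesenchymal value was 1.17 with stricter gates and turned to -0.23 in cells that passed no gate, whereas the mesothelial value lay below 0 under each setting tried. The difference between these ratios was not tested, since each class has 1 library per label.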

How the results depend on the processing

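No paired analysis was possible because each label has 1 library; the comparisons of classes already carry the library as a term. Of 123 alternative values of the counts of members, 108 were within 1.5 times the main count. These values include counts of called members with the same direction in each library alone, which come from the same calls. The number of members past 1.5-fold in mesenchyme was 2, and 6 with stricter gates, 4 with erythroid background subtracted and 1 with a pseudocount of 20. In mesothelium it was 4, and 7 with a pseudocount of 1, 2 with a pseudocount of 20 and 2 with a minimum of 100 UMIs. In epithelium it was 2, and 5 without doublet removal, 4 as mean CPM over cells and 1 with a pseudocount of 20. Called members between endocrine progenitors and trunk numbered 4, and 2 with DESeq2, 2 without the library term, 7 without doublet removal, 2 with stricter gates and 1 with thinned cells, and that 1 was on the lower side. Between hormone-lineage cells and trunk they numbered 7, and 4 with stricter gates. The log2 fold change of Col1a1 was -1.43 there and not called. Without doublet removal it turned to 1.31 and was called higher (edgeR adjusted p = 0.00469). The causes of these moves were not tested. The log2 ratio of summed collagens lay between -0.37 and -0.16 in mesenchyme, 0.03 and 0.16 in mesothelium and -0.49 and -0.29 in epithelium. The alternatives of cells that passed no gate and of equal class shares were chosen after seeing the data. Depth limited the hormone-lineage and endothelial classes, where 2 and 5 members reached 20 UMIs, and 0 did in immune cells.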
